A study of Homo sapiens with 48 samples.

Results

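TNF, LTA and LTB are 3 genes that lie side by side on chromosome 6, in the class III region of the major histocompatibility complex (MHC). They were followed through a count table of 25066 genes, in which each of them had 1 row. They were picked by name because earlier results of the same table had TNF and LTB moving in opposite directions after treatment. The changes of TNF and LTB against vehicle are therefore a description with no test, while LTA was not part of that reason and was tested. The table held 48 RNA-seq libraries of TMD8 and HBL1, each a human line of diffuse large B cell lymphoma (DLBCL), of the activated B cell-like subtype, that had been engineered to carry Cas9. The cells of all 48 libraries carried Cas9, and each line stands for itself and not for a group of lines. Cells received 5 µM NGI-1 (an inhibitor of the oligosaccharyltransferase that attaches N-glycans to proteins in the endoplasmic reticulum), 50 nM acalabrutinib (an inhibitor of the kinase BTK, which sits below the B cell receptor), 20 nM copanlisib (an inhibitor of PI3K) or DMSO, the vehicle. Treatment lasted 3, 6 or 24 h, with 2 libraries for each of the 24 groups of line, time and treatment, and 7165377 to 11999050 counted reads in a library. All 3 genes had enough reads to be tested, among 13881 such genes. Levels are given as CPM, the library's counts scaled to a common depth by the TMM method, for replicates 1 and 2 in that order, and changes as log2 fold changes ± SE from 1 model over the 48 libraries (n = 2 for each group).

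TNF encodes tumour necrosis factor, an inflammatory cytokine made as a membrane protein and released by the protease ADAM17. LTA encodes lymphotoxin alpha, which as a secreted homotrimer binds the same receptors as TNF. LTB encodes lymphotoxin beta, a membrane protein that anchors lymphotoxin alpha at the cell surface in a heterotrimer. That heterotrimer binds the lymphotoxin beta receptor and is known for its part in forming lymph nodes and follicles. In B cells, TNF and LTA are known as genes that B cell receptor and NF-κB signals switch on.

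In RefSeq's order of genes on the GRCh38.p14 assembly the row runs ATP6V1G2, NFKBIL1, LTA, TNF, LTB, LST1, NCR3. LTA and TNF are read from the plus strand, and LTB is read from the minus strand, towards them. The long non-coding gene LOC100287329 overlaps LTA. It had 100 reads in the 48 libraries together and at most 6 in a library, so few reads were counted on it. The promoters are shown as a description. At 24 h LTA and TNF lay below DMSO while LTB lay above it, and whether the promoter letters have a part in that was not tested. Each sequence covers a transcript start with the bases before it. They come from RefSeq on GRCh38.p14, while the reads were counted on hg19. LTA and LTB have 2 entries each: for LTA the one nearer to the coding sequence is shown, and for LTB the first. Capitals mark a match to the κB motif bound by NF-κB, to GCGNGGGCG (the EGR1 motif) or to TATAAA (the TATA box), on either strand.

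TNF, chr6:31575315-31575614, plus strand: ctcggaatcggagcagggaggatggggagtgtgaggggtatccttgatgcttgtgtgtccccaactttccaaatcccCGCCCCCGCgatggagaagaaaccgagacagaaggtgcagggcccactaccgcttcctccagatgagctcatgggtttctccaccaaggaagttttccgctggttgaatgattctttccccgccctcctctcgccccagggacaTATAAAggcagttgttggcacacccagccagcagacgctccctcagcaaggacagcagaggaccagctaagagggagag

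LTA, chr6:31572039-31572338, plus strand: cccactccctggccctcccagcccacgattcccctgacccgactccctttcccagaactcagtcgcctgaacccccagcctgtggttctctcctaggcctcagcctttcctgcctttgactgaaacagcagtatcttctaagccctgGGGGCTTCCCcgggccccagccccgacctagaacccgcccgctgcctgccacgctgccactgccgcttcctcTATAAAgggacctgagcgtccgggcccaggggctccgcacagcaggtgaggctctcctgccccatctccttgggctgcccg

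LTB, chr6:31582376-31582675, minus strand: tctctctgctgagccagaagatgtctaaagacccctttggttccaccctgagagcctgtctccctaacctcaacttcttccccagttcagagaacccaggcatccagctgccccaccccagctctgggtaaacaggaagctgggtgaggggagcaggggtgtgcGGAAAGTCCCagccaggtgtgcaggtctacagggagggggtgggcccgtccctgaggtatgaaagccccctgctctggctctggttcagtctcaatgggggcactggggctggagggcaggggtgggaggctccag

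In the TNF window the EGR1 motif was found on the other strand, 173 bases before the start, and the TATA box 29 bases before it. The LTA window held a κB match, GGGGCTTCCC, 103 bases before the start, and the TATA box 31 bases before it. The LTB window held a κB match, GGAAAGTCCC, 86 bases before the start, and no letters of the TATA box. Of 35116 RefSeq promoters of the same length, 5.91% held a κB match, 9.43% held the EGR1 motif and 11.5% held the TATA box.

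The core of the NFAT motif, GGAAA, was found 3 times in the TNF window, 2 times in the LTA window and 1 time in the LTB window, where it lies inside the κB match, and in 61.2% of all promoters. The AP-1 motif, TGANTCA, was found in none of these 3 windows and in 7.71% of all promoters. Both strands were searched. A match is a description of these letters and not a bound site, and no match says only that these letters are not in the window.

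TNF had the highest level per kilobase of the 3 genes in DMSO-treated TMD8 cells, and it lay below DMSO with each compound, at each time and in both lines. In TMD8 at 3 h it stood at 101 and 119.9 CPM with NGI-1, 35.1 and 33.6 CPM with acalabrutinib, 16.6 and 14.6 CPM with copanlisib, against 166 and 153 CPM with DMSO. At 6 h TMD8 had 72.2 and 80.96 CPM with NGI-1, 20.7 and 23.7 CPM with acalabrutinib, 10.96 and 9.38 CPM with copanlisib, against 228 and 219.6 CPM with DMSO. At 24 h TMD8 had 8.39 and 5.52 CPM with NGI-1, 2.56 and 2.32 CPM with acalabrutinib, 6.06 and 4.46 CPM with copanlisib, against 34.97 and 24.4 CPM with DMSO. In TMD8 no treated library reached a DMSO library of its time. At 3 h and 6 h the groups stood in the same order, DMSO above NGI-1 above acalabrutinib above copanlisib, with no overlap between neighbours. At 24 h acalabrutinib was lowest, and the libraries of NGI-1 and copanlisib overlapped.

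The change of TNF against DMSO in TMD8 was -0.53 ± 0.14 with NGI-1, -2.22 ± 0.16 with acalabrutinib and -3.36 ± 0.17 with copanlisib at 3 h. At 6 h it was -1.55 ± 0.15 with NGI-1, -3.33 ± 0.17 with acalabrutinib and -4.46 ± 0.18 with copanlisib, the last of which is a level 22.0-fold lower with copanlisib than with DMSO. At 24 h it was -2.09 ± 0.21 with NGI-1, -3.59 ± 0.25 with acalabrutinib and -2.47 ± 0.22 with copanlisib. The kinase inhibitors thus stood far below DMSO at 3 h already, while the distance of NGI-1 from DMSO was greater at each later time.

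In HBL1, TNF was a low gene. At 3 h HBL1 had 5.47 and 8.13 CPM with NGI-1, 2.66 and 4.70 CPM with acalabrutinib, 1.64 and 1.57 CPM with copanlisib, against 7.76 and 10.7 CPM with DMSO. At 6 h it had 5.93 and 6.82 CPM with NGI-1, 1.82 and 4.31 CPM with acalabrutinib, 2.72 and 1.17 CPM with copanlisib, against 10.02 and 11.99 CPM with DMSO; the replicates of acalabrutinib and of copanlisib were far apart there. At 24 h it had 1.58 and 1.74 CPM with NGI-1, 4.18 and 4.42 CPM with acalabrutinib, 2.18 and 2.72 CPM with copanlisib, against 11.2 and 11.9 CPM with DMSO. The libraries of NGI-1 and DMSO overlapped at 3 h, and in the other settings of compound and time both treated libraries lay below both DMSO libraries. Such a separation was not counted over all genes, so here and for LTA and LTB it only describes these libraries. At 24 h the order was DMSO above acalabrutinib above copanlisib above NGI-1, with no overlap between neighbours. Log2 changes in HBL1 were -0.42 ± 0.24 with NGI-1, -1.31 ± 0.27 with acalabrutinib and -2.51 ± 0.33 with copanlisib at 3 h. They were -0.78 ± 0.24 with NGI-1, -1.81 ± 0.28 with acalabrutinib and -2.48 ± 0.31 with copanlisib at 6 h. At 24 h they were -2.79 ± 0.32 with NGI-1, -1.42 ± 0.26 with acalabrutinib and -2.24 ± 0.29 with copanlisib. Over both lines the 18 values ran from -4.46 to -0.42.

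**Figure D1:**
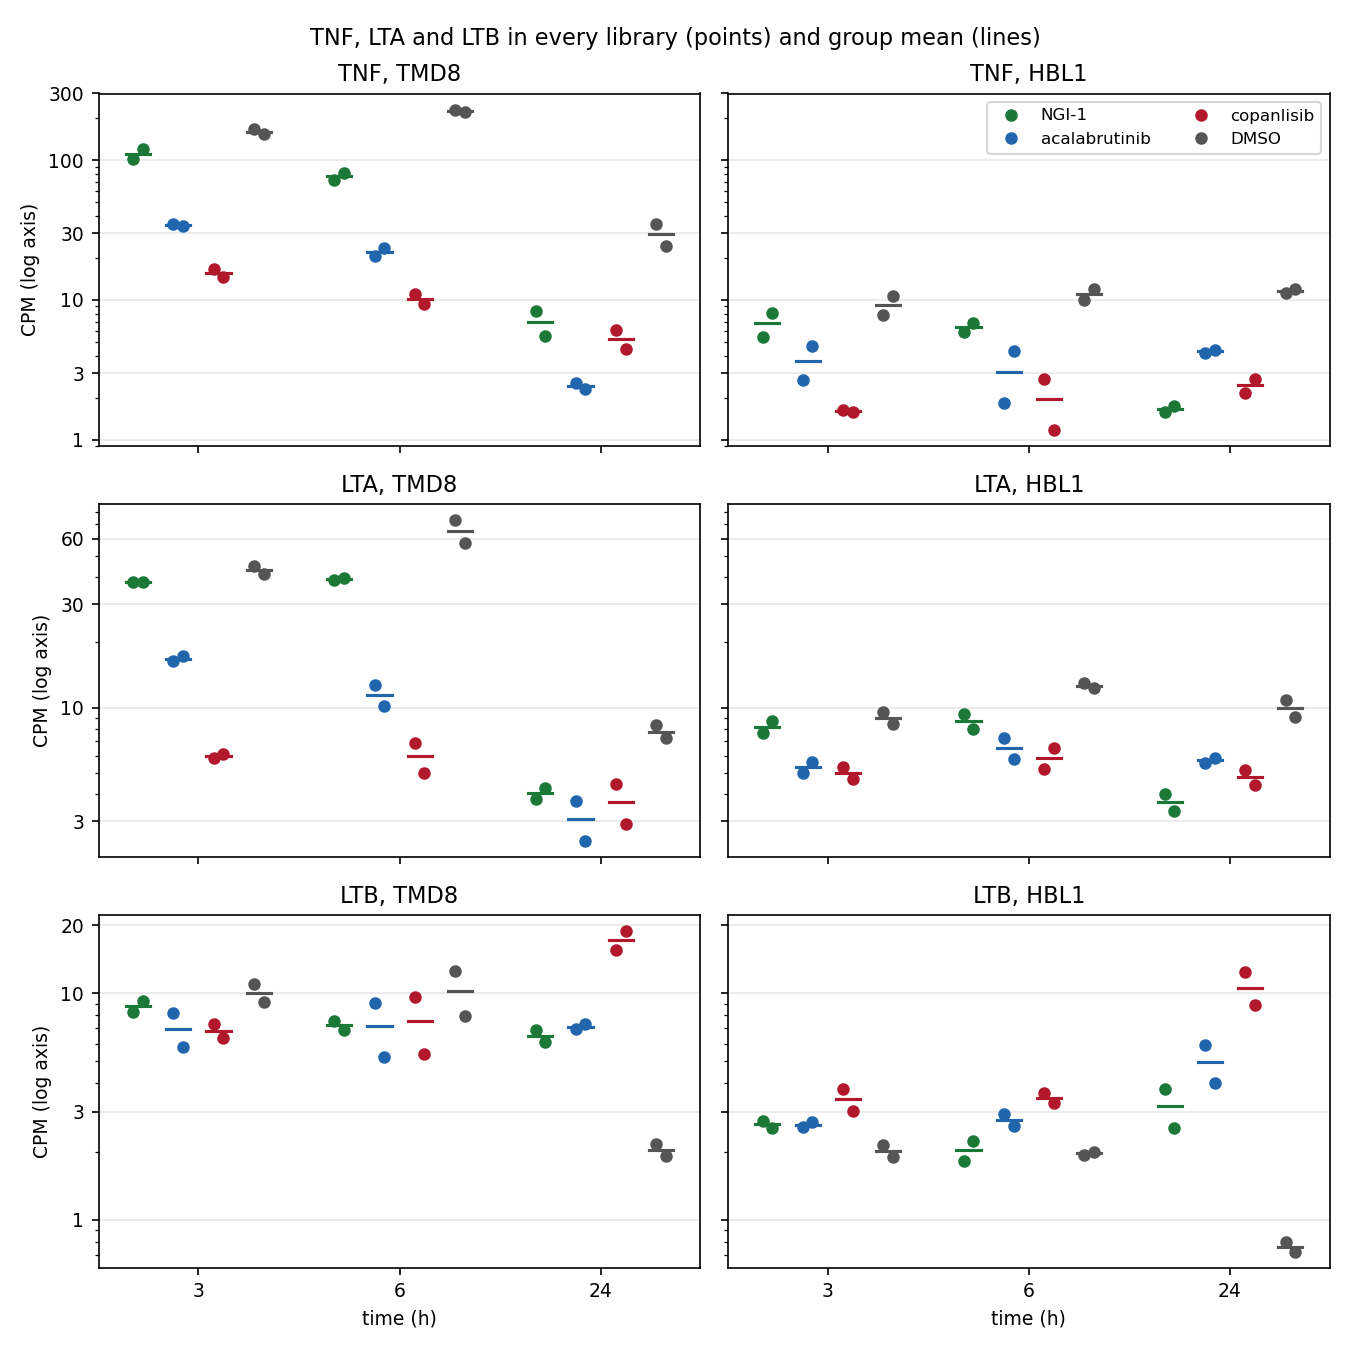
Level of TNF, LTA and LTB in each of the 48 libraries (CPM, log axis) by time in hours, TMD8 on the left and HBL1 on the right. Points are libraries and lines are means of 2 libraries; TNF and LTA lay lowest in treated cells and LTB at 24 h lay lowest in DMSO cells.

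LTA, the neighbour of TNF on the same strand, also lay below DMSO. In TMD8 at 3 h LTA stood at 38.1 and 38.1 CPM with NGI-1, 16.4 and 17.3 CPM with acalabrutinib, 5.86 and 6.15 CPM with copanlisib, against 45.2 and 41.5 CPM with DMSO. At 6 h it stood at 38.8 and 39.6 CPM with NGI-1, 12.7 and 10.2 CPM with acalabrutinib, 6.91 and 5.02 CPM with copanlisib, against 73.2 and 57.6 CPM with DMSO. At 24 h it stood at 3.79 and 4.25 CPM with NGI-1, 3.73 and 2.43 CPM with acalabrutinib, 4.47 and 2.90 CPM with copanlisib, against 8.29 and 7.25 CPM with DMSO. All treated libraries of TMD8 lay below the DMSO libraries of their time, and at 24 h the copanlisib libraries overlapped those of NGI-1 and of acalabrutinib, with NGI-1 just above acalabrutinib. In HBL1 the levels were 7.67 and 8.64 CPM with NGI-1, 5.01 and 5.59 CPM with acalabrutinib, 5.31 and 4.71 CPM with copanlisib, against 9.60 and 8.40 CPM with DMSO at 3 h. They were 9.35 and 7.99 CPM with NGI-1, 7.29 and 5.82 CPM with acalabrutinib, 5.22 and 6.55 CPM with copanlisib, against 13.00 and 12.3 CPM with DMSO at 6 h. At 24 h they were 4.002 and 3.36 CPM with NGI-1, 5.57 and 5.86 CPM with acalabrutinib, 5.15 and 4.42 CPM with copanlisib, against 10.9 and 9.02 CPM with DMSO. NGI-1 overlapped DMSO in HBL1 at 3 h, and in the other comparisons both treated libraries lay below both DMSO libraries.

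edgeR's quasi-likelihood F test with Benjamini-Hochberg adjustment over the 13881 genes called LTA lower than DMSO in 14 of 18 comparisons and higher in none of them. The largest change in TMD8 was with copanlisib at 6 h, -3.47 ± 0.17 (adjusted p = 4.7e-21), followed by copanlisib at 3 h, -2.85 ± 0.17 (adjusted p = 4.3e-17). Acalabrutinib gave -1.37 ± 0.15 (adjusted p = 2.6e-08) at 3 h, -2.52 ± 0.15 (adjusted p = 6.6e-17) at 6 h and -1.32 ± 0.23 (adjusted p = 1e-05) at 24 h. With NGI-1 the change in TMD8 was -0.19 ± 0.14 (adjusted p = 0.87) at 3 h, a difference that did not pass, -0.74 ± 0.14 (adjusted p = 2.5e-04) at 6 h and -0.94 ± 0.22 (adjusted p = 7.2e-04) at 24 h. Copanlisib at 24 h gave -1.05 ± 0.22 (adjusted p = 2.1e-04) in TMD8. In HBL1 the changes were smaller early on, with -0.14 ± 0.18 (adjusted p = 1) with NGI-1, -0.76 ± 0.20 (adjusted p = 0.12) with acalabrutinib and -0.84 ± 0.20 (adjusted p = 0.013) with copanlisib at 3 h. At 6 h HBL1 had -0.54 ± 0.18 (adjusted p = 0.17) with NGI-1, -0.95 ± 0.19 (adjusted p = 6.7e-04) with acalabrutinib and -1.11 ± 0.19 (adjusted p = 4.9e-05) with copanlisib. At 24 h it had -1.43 ± 0.21 (adjusted p = 2.4e-06) with NGI-1, -0.80 ± 0.20 (adjusted p = 0.0027) with acalabrutinib and -1.05 ± 0.20 (adjusted p = 6.6e-05) with copanlisib, with NGI-1 the lowest of the 3 compounds.

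As a background to these counts, the share of all tested genes called in either direction in TMD8 was 0.735% with NGI-1, 0.339% with acalabrutinib and 1.71% with copanlisib at 3 h. It was 4.25% with NGI-1, 4.5% with acalabrutinib and 14.4% with copanlisib at 6 h and 30.4% with NGI-1, 30.8% with acalabrutinib and 31.6% with copanlisib at 24 h. In HBL1 it was 0.353% with NGI-1, 0.223% with acalabrutinib and 2.22% with copanlisib at 3 h, 1.15% with NGI-1, 5.61% with acalabrutinib and 9.54% with copanlisib at 6 h and 19.2% with NGI-1, 18.9% with acalabrutinib and 30.2% with copanlisib at 24 h. LTA was therefore called at 3 h among few genes with acalabrutinib in TMD8 and with copanlisib in both lines, and at 24 h among up to 31.6% of all genes. Leaving out 1 library ended 4 of the 14 calls. With NGI-1 at 6 h in TMD8 the value without DMSO replicate 1 was -0.56 (adjusted p = 0.077), and the adjusted p ran from 6.9e-08 to 0.077 over 11 alternatives. With copanlisib at 3 h in HBL1 it was -0.74 (adjusted p = 0.23) without DMSO replicate 1, -0.94 (adjusted p = 0.054) without copanlisib replicate 1 and -0.76 (adjusted p = 0.17) without copanlisib replicate 2, in a range of 0.0013 to 0.23 over 11 alternatives. With acalabrutinib in HBL1 it was -0.79 (adjusted p = 0.071) at 6 h without acalabrutinib replicate 2 (range 1.7e-05 to 0.071 over 11 alternatives) and -0.65 (adjusted p = 0.091) at 24 h without DMSO replicate 1 (range 5.1e-04 to 0.091 over 11 alternatives). The 3 comparisons of a line and time share their DMSO libraries, so they are not independent of one another. These are bulk samples, in which fewer cells that hold a transcript and less of it in each cell cannot be told apart.

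LTB went another way. In TMD8 at 3 h it stood at 8.29 and 9.26 CPM with NGI-1, 8.19 and 5.77 CPM with acalabrutinib, 7.29 and 6.38 CPM with copanlisib, against 10.9 and 9.11 CPM with DMSO. At 6 h it stood at 7.56 and 6.87 CPM with NGI-1, 9.07 and 5.25 CPM with acalabrutinib, 9.65 and 5.39 CPM with copanlisib, against 12.5 and 7.93 CPM with DMSO, with a wide spread in 3 of these groups. At 24 h it stood at 6.90 and 6.09 CPM with NGI-1, 6.93 and 7.29 CPM with acalabrutinib, 15.6 and 18.8 CPM with copanlisib, against 2.15 and 1.91 CPM with DMSO. Up to 6 h the treated groups of TMD8 thus lay at or somewhat below DMSO, and NGI-1 at 3 h and both kinase inhibitors at 6 h overlapped it. At 24 h all 6 treated libraries lay above both DMSO libraries, and both copanlisib libraries lay above those of NGI-1 and acalabrutinib, with acalabrutinib just above NGI-1.

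In HBL1, LTB was low at 3 h, with 2.73 and 2.54 CPM with NGI-1, 2.56 and 2.70 CPM with acalabrutinib, 3.77 and 3.03 CPM with copanlisib, against 2.14 and 1.89 CPM with DMSO. At 6 h HBL1 had 1.82 and 2.23 CPM with NGI-1, 2.92 and 2.59 CPM with acalabrutinib, 3.63 and 3.27 CPM with copanlisib, against 1.93 and 1.998 CPM with DMSO. At 24 h it had 3.79 and 2.55 CPM with NGI-1, 5.92 and 4.01 CPM with acalabrutinib, 12.4 and 8.84 CPM with copanlisib, against 0.797 and 0.721 CPM with DMSO. The DMSO value at 24 h rests on 8 and 6 reads, and 6 is the lowest count of the 3 genes in any library. Treated and DMSO libraries overlapped with NGI-1 at 6 h, and in the other settings of HBL1 both treated libraries lay above both DMSO libraries. At 24 h the order in HBL1 was copanlisib above acalabrutinib above NGI-1 above DMSO, with no overlap between neighbours.

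The log2 change of LTB at 24 h in TMD8 was 1.68 ± 0.31 with NGI-1, 1.80 ± 0.31 with acalabrutinib and 3.07 ± 0.28 with copanlisib. In HBL1 at 24 h it was 2.05 ± 0.43 with NGI-1, 2.67 ± 0.40 with acalabrutinib and 3.78 ± 0.36 with copanlisib, the last of which is a level 13.7-fold higher with copanlisib than with DMSO. At 3 h it was -0.20 ± 0.24 with NGI-1, -0.52 ± 0.25 with acalabrutinib and -0.56 ± 0.25 with copanlisib in TMD8. In HBL1 at 3 h it was 0.38 ± 0.35 with NGI-1, 0.38 ± 0.36 with acalabrutinib and 0.76 ± 0.34 with copanlisib. At 6 h the values were -0.51 ± 0.24 with NGI-1, -0.52 ± 0.24 with acalabrutinib and -0.46 ± 0.24 with copanlisib in TMD8, and 0.047 ± 0.39 with NGI-1, 0.48 ± 0.36 with acalabrutinib and 0.81 ± 0.35 with copanlisib in HBL1. TNF below DMSO together with LTB above it, the pattern the genes were picked for, was therefore present in 12 of 18 comparisons: 3 of 3 at each time in HBL1, and in TMD8 in 3 of 3 at 24 h and in none of the 6 comparisons at 3 h and 6 h. The HBL1 comparison with NGI-1 at 6 h rested on 1 library, since LTB stood at -0.10 without NGI-1 replicate 2 and the pattern then held in 11 comparisons.

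**Figure D2:**
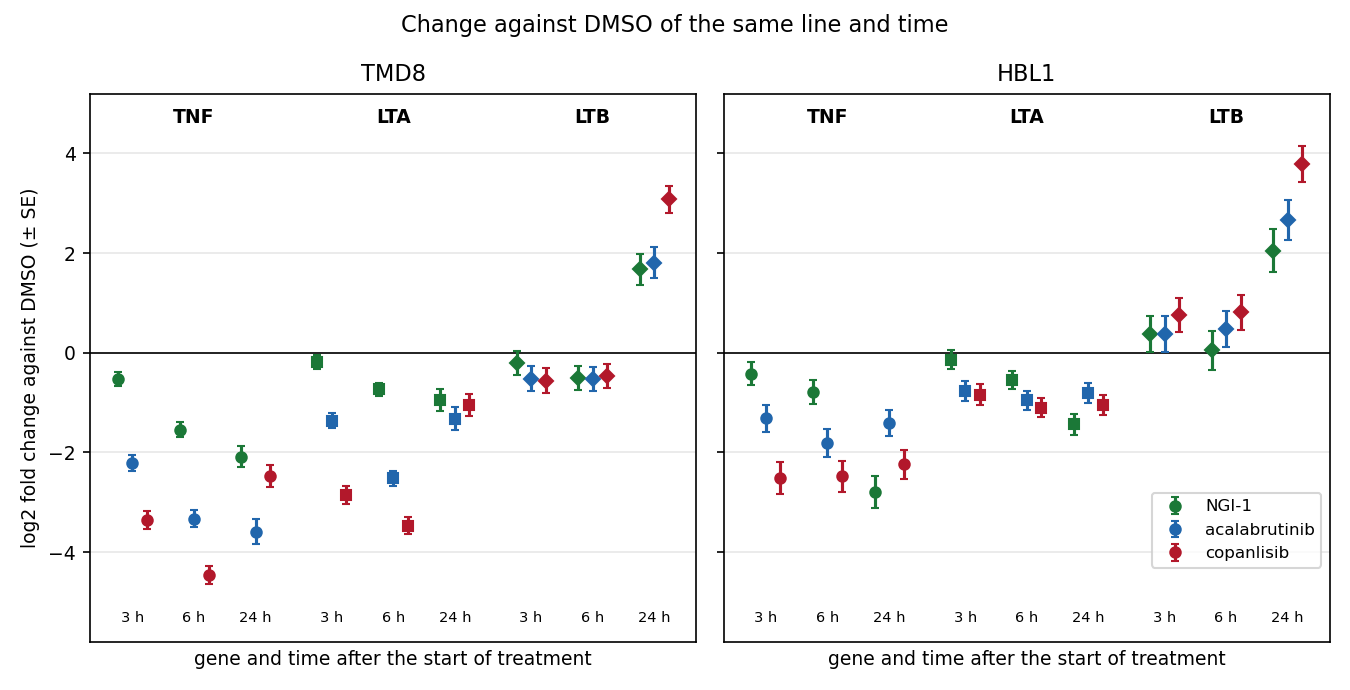
Log2 fold change of TNF, LTA and LTB against DMSO of the same line and time, TMD8 on the left and HBL1 on the right; points are estimates from 1 model (n = 2 a group) and bars are SE. TNF ran from -4.46 to -0.42 and LTB at 24 h from 1.68 to 3.78.

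Because the genes differ in length, their levels were also set side by side per kilobase of a RefSeq transcript (1676 bases for TNF, 1422 for LTA and 897 for LTB). In TMD8 at 24 h LTB stood at 7.24 ± 0.64 CPM per kb with NGI-1, 7.92 ± 0.28 with acalabrutinib and 19.2 ± 2.55 with copanlisib, against 2.26 ± 0.19 with DMSO (SD, n = 2 each). TNF stood at 4.15 ± 1.21, 1.46 ± 0.10 and 3.14 ± 0.67 CPM per kb with the same compounds, against 17.7 ± 4.46 with DMSO. The leading gene of the locus was thus LTB in treated TMD8 cells at 24 h, and TNF with DMSO.

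As a share of the summed level of the 3 genes per kb, LTB in TMD8 at 24 h made up 51% with NGI-1, 68.7% with acalabrutinib, 76.9% with copanlisib, against 9.0% with DMSO. In HBL1 at 24 h it made up 49.2% with NGI-1, 45.3% with acalabrutinib, 70.6% with copanlisib, against 5.7% with DMSO. At 3 h it made up 9.5% with NGI-1, 19.3% with acalabrutinib, 36.0% with copanlisib, against 8.1% with DMSO in TMD8. In HBL1 at 3 h it made up 23.3% with NGI-1, 33.3% with acalabrutinib, 45.7% with copanlisib, against 16.0% with DMSO. The share of LTB lay above that of DMSO already at 3 h with each compound, where in TMD8 the level of LTB itself did not: the levels of TNF and LTA lay lower there. In DMSO, TNF led in TMD8 at each time (69.6% at 3 h, 70.1% at 6 h and 69.3% at 24 h), while in HBL1 the mean share of LTA was the highest or level with TNF (45.0%, 50.5% and 47.4%).

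**Figure D3:**
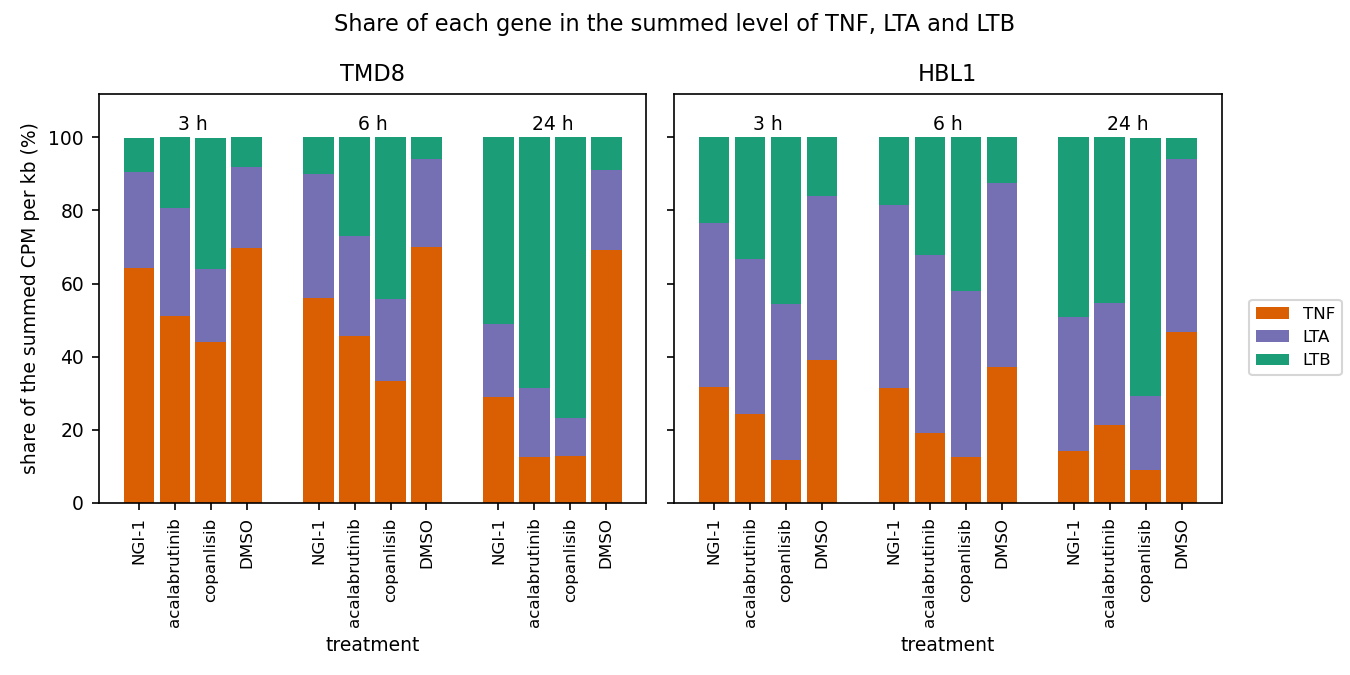
Share of TNF, LTA and LTB in their summed level per kilobase (percent, mean of 2 libraries) by line, time and treatment. LTB made up 76.9% of the sum with copanlisib, against 9.0% with DMSO, in TMD8 at 24 h.

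The compounds were then compared with each other, which asks whether the response of the locus differed between blocking N-glycosylation, BTK and PI3K at the doses used. These comparisons leave DMSO out and share treated libraries with the values above. Those libraries also entered the choice of TNF and LTB. The p-values of TNF and LTB between compounds are therefore not independent of that choice. Over the 3 genes and 18 comparisons, 20 of 54 differences passed edgeR's quasi-likelihood test, 10 for TNF, 7 for LTA and 3 for LTB. With NGI-1 over acalabrutinib the share of all genes called in TMD8 was 0.98% at 3 h, 3.3% at 6 h and 1.3% at 24 h. HBL1 had 0.937%, 3.49% and 3.25% at the same times. With NGI-1 over copanlisib it was 2.23%, 5.78% and 1.35% in TMD8, and 3.08%, 6.74% and 4.93% in HBL1. With copanlisib over acalabrutinib few genes were called: 0.339%, 0.281% and 0.461% in TMD8, and 0.0216%, 0.0937% and 0.101% in HBL1.

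At 3 h and 6 h in TMD8, TNF and LTA were higher with NGI-1 than with acalabrutinib and lower with copanlisib than with acalabrutinib. TNF with NGI-1 over acalabrutinib differed by 1.69 ± 0.16 (adjusted p = 1.3e-09) at 3 h and 1.78 ± 0.17 (adjusted p = 4.3e-10) at 6 h, and LTA by 1.18 ± 0.15 (adjusted p = 4.8e-07) and 1.78 ± 0.16 (adjusted p = 1.2e-11). TNF with NGI-1 over copanlisib differed by 2.83 ± 0.17 (adjusted p = 8e-15) at 3 h and 2.92 ± 0.18 (adjusted p = 8.9e-15) at 6 h. LTA differed by 2.66 ± 0.17 (adjusted p = 1.5e-15) and 2.73 ± 0.17 (adjusted p = 3e-16) at these times. Between the kinase inhibitors, copanlisib over acalabrutinib, TNF differed by -1.14 ± 0.18 (adjusted p = 5.8e-04) at 3 h and -1.13 ± 0.20 (adjusted p = 0.0026) at 6 h. LTA differed by -1.49 ± 0.19 (adjusted p = 2.1e-06) at 3 h and -0.95 ± 0.19 (adjusted p = 0.009) at 6 h. The calls at 6 h rested on single libraries. For TNF the adjusted p was 0.12 without acalabrutinib replicate 2 and 0.17 without copanlisib replicate 2 (range 6.6e-09 to 0.17 over 11 alternatives). For LTA it was 0.35 without acalabrutinib replicate 1 and 0.5 without copanlisib replicate 2 (range 2e-04 to 0.5 over 11 alternatives).

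In HBL1 at 3 h, TNF was higher with NGI-1 than with copanlisib by 2.09 ± 0.34 (adjusted p = 8.9e-05), and LTA by 0.70 ± 0.20 (adjusted p = 0.04). The call for LTA was lost without each of the 4 libraries in turn, with adjusted p from 0.063 (without NGI-1 replicate 1) to 0.3 (without NGI-1 replicate 2). At 6 h TNF differed by 1.70 ± 0.35 (adjusted p = 0.001) between NGI-1 and copanlisib, and by 1.22 (adjusted p = 0.066) without copanlisib replicate 2 (range 2.2e-07 to 0.066 over 11 alternatives). TNF with copanlisib over acalabrutinib in HBL1 was -1.20 ± 0.39 (adjusted p = 0.68) at 3 h, with a 95% interval of -1.99 to -0.41, and did not pass. TNF with NGI-1 over acalabrutinib in HBL1 was 0.89 ± 0.28 (adjusted p = 0.18) at 3 h and 1.02 ± 0.32 (adjusted p = 0.065) at 6 h. Neither passed, with 95% intervals of 0.32 to 1.47 and 0.38 to 1.66. Both passed in the fit without a filter on low counts (adjusted p = 0.01 and 0.0033).

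At 24 h TNF stood higher with NGI-1 than with acalabrutinib in TMD8 and lower in HBL1. In TMD8 it was higher with NGI-1 than with acalabrutinib by 1.51 ± 0.32 (adjusted p = 0.0054). In HBL1 it was lower with NGI-1, and NGI-1 over acalabrutinib was -1.37 ± 0.38 (adjusted p = 0.035). The difference between the lines was not tested as such for this pair of compounds. In TMD8 the call was lost without 3 of the 4 libraries, with adjusted p of 0.069 and 0.13 without acalabrutinib replicates 1 and 2 and 0.31 without NGI-1 replicate 1. In HBL1 it was lost without each of the 4 libraries, with adjusted p from 0.14 (without acalabrutinib replicate 1) to 0.27 (without NGI-1 replicate 1). TNF with copanlisib over acalabrutinib at 24 h was 1.12 ± 0.34 (adjusted p = 0.18) in TMD8, with a 95% interval of 0.44 to 1.80. In HBL1 it was -0.82 ± 0.35 (adjusted p = 0.6), with an interval of -1.53 to -0.11. Neither passed, though the one in TMD8 did without a filter (adjusted p = 0.0061) and with DESeq2 (0.036). LTA did not differ beyond the threshold between any 2 compounds at 24 h, and its 95% intervals in TMD8 ran within -0.40 to 0.90. In HBL1, LTA with NGI-1 over acalabrutinib was -0.63 ± 0.23 (adjusted p = 0.16), with a 95% interval of -1.10 to -0.16 that leaves out 0. NGI-1 over copanlisib had an interval of -0.86 to 0.11 there, and copanlisib over acalabrutinib one of -0.70 to 0.19.

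For LTB the compounds separated at 24 h, when copanlisib stood highest. NGI-1 over copanlisib was -1.40 ± 0.24 (adjusted p = 1.7e-04) in TMD8 and -1.74 ± 0.27 (adjusted p = 2.3e-05) in HBL1, and both calls were kept without each library in turn. Copanlisib over acalabrutinib was 1.27 ± 0.23 (adjusted p = 0.0014) in TMD8, among 0.461% of all genes called there, a level 2.41-fold higher with copanlisib. In HBL1 it was 1.11 ± 0.26 (adjusted p = 0.058), which missed the threshold, and 1.33 (adjusted p = 0.043) without copanlisib replicate 2 (range 1.6e-04 to 0.95 over 10 alternatives). Between NGI-1 and acalabrutinib LTB did not differ beyond the threshold, at -0.13 ± 0.26 in TMD8 (95% interval -0.65 to 0.39) and -0.63 ± 0.30 in HBL1 (95% interval -1.24 to -0.014). None of the 12 differences of LTB between compounds at 3 h and 6 h passed.

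**Figure D4:**
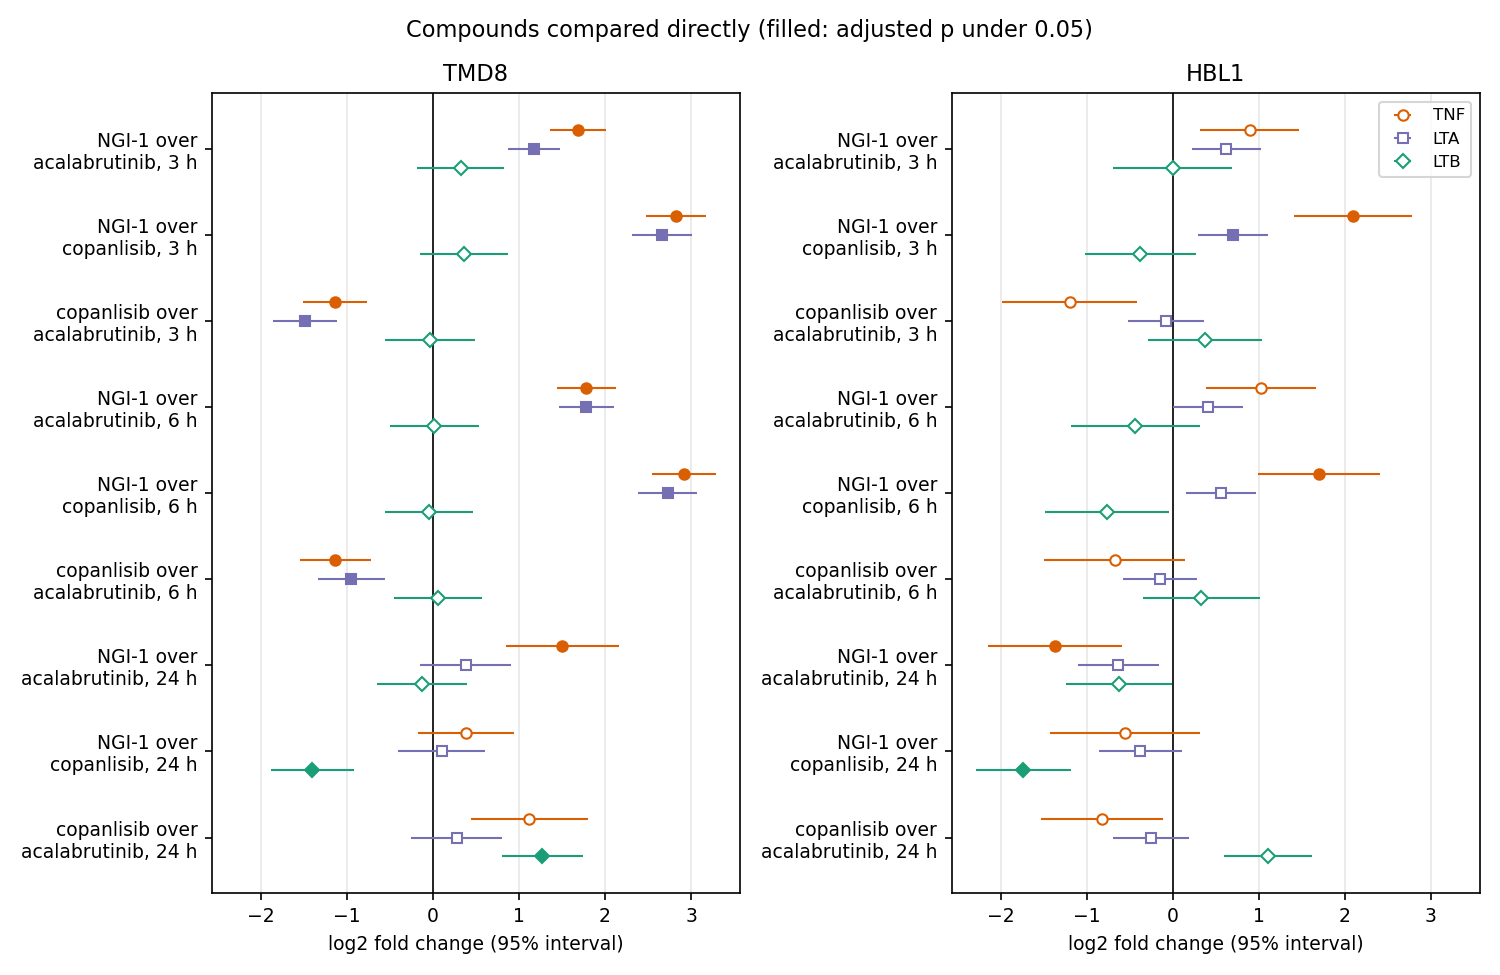
Log2 fold changes of TNF, LTA and LTB between compounds at the same time, TMD8 on the left and HBL1 on the right; bars are 95% intervals (n = 2 a group) and filled points passed an adjusted p of 0.05. TNF and LTA separated the compounds at 3 h and 6 h in TMD8, and LTB separated copanlisib from NGI-1 at 24 h in both lines.

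The size of a compound's change against DMSO was next set against that in the other line and at the other time. For TNF and LTB these differences are made of the same comparisons for which the genes were picked, and are given with their intervals and no test. LTA, which was tested, differed between the lines in 3 of 9 comparisons, each time with the larger fall in TMD8. The fall with copanlisib was larger in TMD8 than in HBL1, with a difference of -2.01 ± 0.27 (adjusted p = 3.9e-05) at 3 h and -2.36 ± 0.26 (adjusted p = 1.7e-07) at 6 h. The fall with acalabrutinib was larger in TMD8 too, with a difference of -1.56 ± 0.25 (adjusted p = 2.8e-04) at 6 h. These 3 calls were kept without each library in turn. Few genes differed this way: at 3 h 0.0144% of all genes were called with NGI-1, 0.0% with acalabrutinib and 0.0576% with copanlisib. At 6 h 0.0216%, 0.151% and 0.562% were called with these compounds, and at 24 h 2.57%, 4.19% and 4.22%. At 24 h the LTA differences between lines did not pass, and with copanlisib the difference was 0.0073 ± 0.33 (95% interval -0.66 to 0.67).

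TNF with acalabrutinib differed between TMD8 and HBL1 by -2.18 ± 0.40 at 24 h (95% interval -2.99 to -1.37), the widest gap of the 9 for TNF. With copanlisib it differed by -1.98 ± 0.44 at 6 h, and by -1.25 without HBL1 copanlisib replicate 1. With NGI-1 at 24 h TNF differed by 0.70 ± 0.42 (95% interval -0.15 to 1.55). The differences of LTB between lines lay below 0 in all 9 comparisons and ran from -1.32 to -0.37. At each time the 3 of them share the DMSO libraries of both lines.

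Between 24 h and 3 h the change of LTA with NGI-1 moved further down, with a difference of -1.30 ± 0.28 (adjusted p = 0.0032) in HBL1 and -0.75 ± 0.26 (adjusted p = 0.049) in TMD8. The call in TMD8 was lost without each of the 8 libraries in turn (adjusted p 0.061 without TMD8 24 h DMSO replicate 2 to 0.19 without TMD8 24 h NGI-1 replicate 1). With copanlisib in TMD8 it moved the other way, with a difference of 1.80 ± 0.29 (adjusted p = 2.1e-05), and the level of LTA in DMSO cells was also lower at 24 h. These were 3 of 6 comparisons for LTA. The share of all genes called was 12.0% with NGI-1, 14.4% with acalabrutinib and 10.9% with copanlisib in TMD8. HBL1 had 4.8%, 3.96% and 9.31%. The change of TNF with NGI-1 lay lower at 24 h than at 3 h, with a difference of -1.56 (95% interval -2.08 to -1.03) in TMD8 and -2.37 (95% interval -3.21 to -1.53) in HBL1. The change of LTB was more positive at 24 h than at 3 h in all 6 settings, from 1.67 (95% interval 0.51 to 2.82) with NGI-1 in HBL1 to 3.63 (95% interval 2.87 to 4.40) with copanlisib in TMD8.

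**Figure D5:**
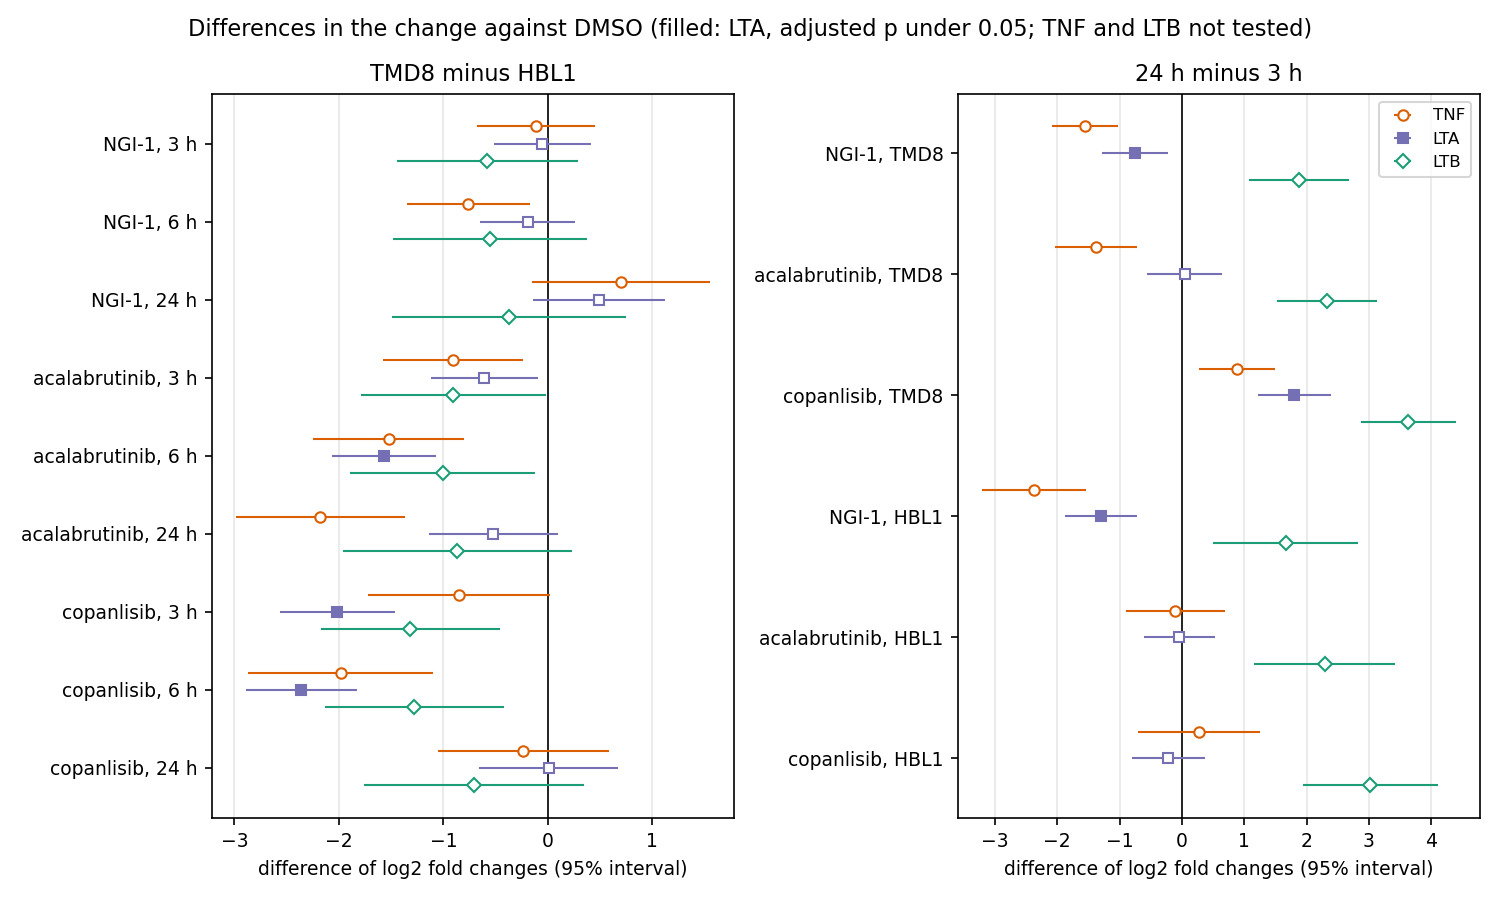
Differences in the log2 change against DMSO between the lines (TMD8 minus HBL1, left) and between times (24 h minus 3 h, right), with 95% intervals (n = 2 a group); filled points are LTA values with an adjusted p under 0.05, and TNF and LTB were not tested. The change of LTB against DMSO was more positive at 24 h than at 3 h in all 6 settings, by 1.67 to 3.63. In DMSO cells LTB itself was lower at 24 h than at 3 h in both lines.

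The vehicle cells themselves did not stay at one level. Their libraries also stand in the comparisons for which TNF and LTB were picked. The p-values of TNF and LTB in DMSO are therefore not independent of that choice. In TMD8 DMSO cells at 24 h over 3 h, TNF fell by 2.43 ± 0.16 on the log2 scale (adjusted p = 1.5e-14), LTA by 2.48 ± 0.16 (adjusted p = 4.5e-16) and LTB by 2.31 ± 0.30 (adjusted p = 5.2e-08). In that setting 32.8% of all genes were called. In HBL1, where 39.7% were called, TNF and LTA did not differ beyond the threshold and stood at 0.32 ± 0.22 (adjusted p = 0.27) and 0.15 ± 0.18 (adjusted p = 0.56). LTB fell there by 1.39 ± 0.47 on the log2 scale (adjusted p = 0.016), a call lost without 3 of the 4 libraries (adjusted p 0.081 without 3 h replicate 1, and 0.071 and 0.082 without 24 h replicates 1 and 2). The higher LTB of treated cells at 24 h is thus set against a vehicle level that was lower than at 3 h. With copanlisib, LTB at 24 h stood at 15.6 and 18.8 CPM in TMD8, above each DMSO library of that line at 3, 6 or 24 h. With NGI-1 and acalabrutinib in TMD8 at 24 h it lay below the 4 DMSO libraries of 3 h and 6 h. In HBL1 the 6 treated libraries at 24 h lay above all 6 DMSO libraries of the line. Between 6 h and 3 h in TMD8, where 8.39% of genes were called, DMSO cells gained TNF (0.48 ± 0.14, adjusted p = 0.025) and LTA (0.59 ± 0.14, adjusted p = 0.003). The call for TNF was lost without each of the 4 libraries (adjusted p 0.077 without 3 h replicate 1 to 0.22 without 3 h replicate 2), and that for LTA without 6 h replicate 1 (0.19) and 3 h replicate 2 (0.067). In HBL1, with 9.11% of genes called, none of the 3 genes passed between 6 h and 3 h. Over both lines 6 of 12 tests passed.

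The lines differed widely in vehicle. For TNF and LTB these tests, too, use DMSO libraries that entered the choice of the genes. In DMSO, 8 of 9 comparisons of TMD8 over HBL1 passed, each with the higher level in TMD8, but 65.1% of all genes differed between the lines at 3 h, 65.6% at 6 h and 65.8% at 24 h. TNF was 17.3-fold higher in TMD8 at 3 h and 20.3-fold higher at 6 h (4.35 ± 0.18, adjusted p = 5.2e-23), and 2.57-fold higher at 24 h (1.36 ± 0.19, adjusted p = 8.6e-08). LTA was 5.16-fold higher in TMD8 at 6 h, and at 24 h it stood at -0.37 ± 0.19 (adjusted p = 0.08), which did not pass (range 0.05 to 0.44 over 10 alternatives). LTB was higher in TMD8 by 1.39 ± 0.47 (adjusted p = 0.0082) at 24 h. With 1 line on each side these tests compare TMD8 with HBL1 and no kinds of lymphoma.

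Across the 12 group means of a line, TNF and LTA were high and low in the same groups, with a Pearson r of 0.973 in TMD8 and 0.908 in HBL1. TNF and LTB had an r of 0.032 in TMD8 and -0.645 in HBL1. The points share libraries, depth and DMSO groups, and no p is given. The genes whose pattern was most like that of a member were looked for among 11029 genes whose mean log2 CPM reached 1, over 24 group means centred within each line. For TNF they were LTA (r = 0.954), NFKBIA (0.932), which encodes the NF-κB inhibitor IκBα, IL10 (0.93), which encodes an anti-inflammatory cytokine, SLC25A32 (0.923), a mitochondrial carrier of folate, and ZFP36L1 (0.917), which encodes a protein that binds AU-rich elements. For LTA they were TNF, METTL13 (0.91), SLC19A2 (0.902), a thiamine transporter, ZFP36L1 (0.901) and NFKBIA (0.9). For LTB they were AK1 (0.861), an adenylate kinase, HLA-DMA (0.853), a chaperone of MHC class II peptide loading, LSP1 (0.853), a leukocyte actin-binding protein, NLRP7 (0.808) and ZBTB48 (0.798), a zinc finger protein that binds telomeres. NFKBIA and ZFP36L1 stood on both the list of TNF and that of LTA.

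Of the receptors for these ligands, TNFRSF1A, which encodes the death domain receptor for TNF and lymphotoxin alpha, had 0 reads among 220187397 in the 24 TMD8 libraries, which allows a level of up to 0.0136 CPM at 3 reads. It had 1 read among 221921807 in HBL1. LTBR, which encodes the receptor of the lymphotoxin heterotrimer, likewise had 0 reads in TMD8 and 1 read in HBL1. TNFRSF1B, which encodes the other TNF receptor, stood at 132 to 217 CPM in TMD8 and 132 to 297 CPM in HBL1. At 24 h TNFRSF1B was higher in TMD8 with NGI-1 (0.27 ± 0.093, adjusted p = 0.022), acalabrutinib (0.28 ± 0.093, adjusted p = 0.017) and copanlisib (0.38 ± 0.093, adjusted p = 0.0012). In HBL1 it was lower with NGI-1 (-0.27 ± 0.093, adjusted p = 0.037) and did not pass with the kinase inhibitors. TNFRSF14, which encodes a receptor (HVEM) that lymphotoxin alpha can bind, rose at 24 h with acalabrutinib by 0.86 ± 0.23 (adjusted p = 0.0029) in TMD8 cells and 0.90 ± 0.21 (adjusted p = 0.002) in HBL1 cells, and with copanlisib by 0.88 ± 0.23 (adjusted p = 0.0027) in TMD8 cells and 1.01 ± 0.21 (adjusted p = 2.5e-04) in HBL1 cells. With NGI-1 it rose in TMD8 by 0.67 ± 0.23 (adjusted p = 0.025), and in HBL1 it stood at 0.22 ± 0.23 (adjusted p = 0.57), which did not pass. No receptor passed at 3 h or 6 h.

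Of 3 genes for the release of TNF from the membrane, 1 was called at 24 h. All genes were called at 30.4% to 31.6% in TMD8 and 18.9% to 30.2% in HBL1 at that time. The count is therefore not read as a result about these genes. RHBDF2, which encodes the inactive rhomboid iRhom2 that carries ADAM17 to the cell surface, rose at 24 h in all 6 comparisons, by 0.45 to 1.05 (adjusted p = 4.5e-07 to 0.0045). At 6 h it was already higher with acalabrutinib in TMD8 (0.46 ± 0.12, adjusted p = 0.014) and HBL1 (0.66 ± 0.14, adjusted p = 0.0025). With copanlisib at 6 h it was higher in TMD8 (0.43 ± 0.12, adjusted p = 0.01) and did not pass in HBL1 (0.39 ± 0.15, adjusted p = 0.083). With NGI-1 it did not pass at 6 h in either line. All genes were called at 4.5%, 5.61% and 14.4% in the settings called at 6 h. ADAM17 itself stood at 33.8 to 58.1 CPM in TMD8 and 40.05 to 64.3 CPM in HBL1 and was not called at 24 h, and RHBDF1 had 88 and 136 reads in all TMD8 and HBL1 libraries.

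The other genes of the pathway are read against the share of all tested genes called at 24 h, which was 30.4% with NGI-1, 30.8% with acalabrutinib and 31.6% with copanlisib in TMD8, and 19.2% with NGI-1, 18.9% with acalabrutinib and 30.2% with copanlisib in HBL1. A gene is named for the compounds with which it was called in the same direction in both lines, and a compound left out beside it says nothing of that compound.

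Of 24 genes of the TNF receptor signalling complexes, with NGI-1, acalabrutinib and copanlisib in that order, 8, 5 and 5 rose and 3, 4 and 3 fell in TMD8 at 24 h. In HBL1 1, 0 and 3 rose and 5, 5 and 5 fell. The medians of the list ran from -0.062 to 0.14 on the log2 scale, against -0.018 to 0.01 for all genes. TRAF1, an NF-κB target that encodes a signalling adaptor, fell with each compound in both lines, with changes of -1.25 to -0.75 (adjusted p = 1.3e-07 to 3.5e-04). TNFAIP3, which encodes the ubiquitin-editing inhibitor A20, fell with acalabrutinib with changes of -1.17 ± 0.17 (adjusted p = 4.4e-06) in TMD8 cells and -1.19 ± 0.17 (adjusted p = 7.4e-06) in HBL1 cells, and with copanlisib with changes of -0.50 ± 0.16 (adjusted p = 0.019) in TMD8 cells and -1.04 ± 0.17 (adjusted p = 1.7e-05) in HBL1 cells. CFLAR, which encodes the caspase-8 inhibitor c-FLIP, fell with both kinase inhibitors, with changes of -0.82 to -0.42 (adjusted p = 1.5e-12 to 9.1e-06). With NGI-1, TRAF2, an adaptor that recruits ubiquitin ligases, fell with changes of -0.49 ± 0.13 (adjusted p = 0.0028) in TMD8 cells and -0.63 ± 0.12 (adjusted p = 7.7e-05) in HBL1 cells. CYLD, a deubiquitinase that restrains NF-κB, rose with NGI-1 by 0.30 ± 0.11 (adjusted p = 0.025) in TMD8 cells and 0.43 ± 0.10 (adjusted p = 0.0014) in HBL1 cells.

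Of the other ligands of the superfamily 7 of 15 were tested, and with NGI-1, acalabrutinib and copanlisib in that order 2, 1 and 2 rose and 1, 0 and 1 fell in TMD8 at 24 h. In HBL1 1, 1 and 1 rose and 0, 0 and 0 fell. The medians of the list ran from -0.026 to 0.60. The 1 to 3 of 7 called in TMD8, against 30.4% to 31.6% of all genes, and 1 of 7 in HBL1, against 18.9% to 30.2%, are not read as a result about these ligands. TNFSF8, the ligand of CD30, had 35 and 33 reads with NGI-1, against 13 and 12 with DMSO, in HBL1 at 24 h (1.45 ± 0.43, adjusted p = 0.014). In TMD8 it had 2 and 3 reads with NGI-1, against 0 and 0 with DMSO, and no fold is given.

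Of the other receptors 11 of 13 were tested, and with the compounds in the same order 5, 4 and 4 rose and 0, 1 and 1 fell in TMD8, while in HBL1 1, 2 and 2 rose and 1, 1 and 2 fell. Their medians ran from -0.11 to 0.55. Called in either direction were 5 of 11 with each compound in TMD8, against 30.4% to 31.6% of all genes, and 2 to 4 of 11 in HBL1, against 18.9% to 30.2%. CD27, a receptor of memory B cells, rose in all 6 comparisons at 24 h, by 1.32 to 1.99 (adjusted p = 9.5e-07 to 0.0018). It had 82 reads with NGI-1, 110 with acalabrutinib and 120 with copanlisib, against 33 with DMSO, summed over both TMD8 libraries of a group at 24 h. CD40, the receptor for T cell help, fell with acalabrutinib with changes of -0.57 ± 0.12 (adjusted p = 2.7e-04) in TMD8 cells and -0.94 ± 0.12 (adjusted p = 6.7e-08) in HBL1 cells.

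Proteins that bind AU-rich and stem-loop elements control the stability of TNF mRNA. Of 8 genes for them, in the same order, 0, 2 and 1 rose and 3, 4 and 3 fell in TMD8, and in HBL1 0, 0 and 1 rose and 4, 2 and 3 fell, with medians of -0.31 to -0.067. All genes were called at 30.4% to 31.6% in TMD8 and 18.9% to 30.2% in HBL1. ZC3H12A, which encodes the endonuclease Regnase-1 that cleaves cytokine mRNA, fell in all 6 comparisons, with changes of -1.03 to -0.43 (adjusted p = 7.7e-07 to 0.018). ELAVL1, which encodes the stabilising protein HuR, fell in all 6, with changes of -0.40 to -0.28 (adjusted p = 2.6e-04 to 0.013). KHSRP, which encodes a decay factor, fell with copanlisib with changes of -0.48 ± 0.079 (adjusted p = 5.6e-06) in TMD8 cells and -0.23 ± 0.079 (adjusted p = 0.022) in HBL1 cells.

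Of 14 transcription factors known to act on the locus, in the same order, 1, 2 and 3 rose and 1, 3 and 0 fell in TMD8 at 24 h, and in HBL1 1, 2 and 2 rose and 3, 2 and 3 fell. The 2 to 5 of 14 called in TMD8 at 24 h stand against 30.4% to 31.6% of all genes, and the 4 to 5 of 14 in HBL1 against 18.9% to 30.2%. At 6 h 2, 7 and 7 fell and 0, 0 and 1 rose in TMD8, and 0, 5 and 5 fell and 0, 0 and 1 rose in HBL1. Of all 13881 genes, 276, 389 and 1030 were called lower in TMD8 at that time, and 10, 438 and 741 in HBL1. Other lists held falls at 6 h too. Of the 24 genes of the signalling complexes, 3, 5 and 5 fell and 0, 0 and 3 rose in TMD8. In HBL1 0, 6 and 4 of them fell and 0, 1 and 0 rose. Of the 8 genes for binders of AU-rich and stem-loop elements, 2, 2 and 2 fell in TMD8 and 0, 2 and 3 in HBL1, and 0 rose. Medians of the 14 factors ran from -0.43 to -0.08 at 6 h and -0.21 to 0.042 at 24 h. ETS1, a factor of lymphoid cells, rose in all 6 comparisons at 24 h, by 0.59 to 0.87 (adjusted p = 6.4e-09 to 4.6e-05). SPI1, which encodes PU.1, rose with both kinase inhibitors, by 0.50 to 1.03 (adjusted p = 5.2e-04 to 0.034). NFKB2, which encodes the p100 precursor of the non-canonical NF-κB pathway, fell with acalabrutinib with changes of -1.17 ± 0.11 (adjusted p = 1.6e-11) in TMD8 cells and -0.56 ± 0.10 (adjusted p = 4.7e-05) in HBL1 cells.

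Of 15 neighbours, in the class III region or at its edge, 11 were tested, and at 24 h 0 to 2 rose and 1 fell in a comparison, with medians of -0.15 to 0.14. Called in either direction were 2 to 3 of 11 in TMD8, against 30.4% to 31.6% of all genes, and 1 to 2 of 11 in HBL1, against 18.9% to 30.2%, so the counts are not read as a result about the neighbours. NFKBIL1, which lies beside LTA, stood at 4.18 to 7.81 CPM in TMD8 and 1.54 to 3.90 CPM in HBL1, and was not called at 24 h. LST1, which lies beside LTB, had 25 and 11 reads in all TMD8 and HBL1 libraries and was not tested. CSNK2B, which encodes the regulatory subunit of casein kinase 2, fell in all 6 comparisons, with changes of -0.36 to -0.23 (adjusted p = 7.3e-04 to 0.04). HLA-B, a class I gene at the edge of the region, rose with both kinase inhibitors, by 0.21 to 0.65 (adjusted p = 1.9e-09 to 0.041). With NGI-1 it rose in TMD8 by 0.57 ± 0.074 (adjusted p = 3.8e-08), and in HBL1 it stood at 0.065 ± 0.073 (adjusted p = 0.6), which did not pass.

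TNF, LTA and LTB are also made by T cells, natural killer cells and myeloid cells. All 6 B cell markers reached 1 CPM in both lines, with a summed level of 2640 to 4370 CPM in TMD8 and 2270 to 3720 CPM in HBL1. Of 8 markers of T and natural killer cells, 1 reached 1 CPM in TMD8 and 0 in HBL1, 2 had 0 reads in either line, and their sum ran from 0.104 to 2.64 CPM in TMD8 and from 0.0963 to 0.841 CPM in HBL1. Of 8 myeloid markers, 2 reached 1 CPM in TMD8 and 1 in HBL1, with sums of 1.04 to 3.16 CPM and 0.696 to 3.25 CPM. Stromal and epithelial markers, of which 3 and 2 of 8 reached 1 CPM, summed to 8.11 to 17.6 CPM in TMD8 and 12.9 to 24.4 CPM in HBL1.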

How the data were processed

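RNA-seq libraries of TMD8 and HBL1 cells were grouped by the line, time and treatment in the labels. The deposited values are raw read counts per gene, counted with HTSeq on hg19 per the submitters' processing notes. The aligner and the strand setting are not given in the sources used here, so reads from overlapping genes on opposite strands may not be separated, and reads shared within the MHC region were not examined. Per the labels' protocols, cells grew in advanced RPMI with serum, RNA was taken with a Qiagen AllPrep kit and libraries were made with a standard Illumina kit. The row of totals was left out. Of 25066 genes, 3449 had no gene ID and held 0.815% of reads, and 27 symbols turned into dates were restored by gene ID.

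Counts were fitted with edgeR 4.0.16 in R 4.3.3 (TMM scaling, filterByExpr by group, 24 group means, 24 residual degrees of freedom). The quasi-likelihood F test was adjusted by Benjamini-Hochberg within each of 58 comparisons over 13881 genes and called at an adjusted p under 0.05, and intervals are 95%. The members, the gene lists and the rule for named genes were chosen with earlier results of these data known. Named genes were those called in both lines in the same direction at 24 h, up to 3 for each list and compound by the smaller of the 2 changes, all receptors, and the 5 genes most like each member. ADAM17, RHBDF1, NFKBIL1 and LST1, outside that rule, were chosen after their values were seen. For TNF and LTB, the differences between lines and between times in a compound's change had been planned as tests. They are made of the comparisons used for the choice, so they are given without one. Separate cultures are not named for the replicates in the labels: the p-values then speak of the spread among these libraries, which may be technical. Depth was 7165377 to 11999050 reads (median 9182128), and limits set from 0 reads cover counting error only. Replicates differed beyond counting noise (chi-square per degree of freedom 2.53 to 8.49), so each library was counted on its own. The tests were run on counts simulated from the same fitted model, for NGI-1 over DMSO at 24 h in TMD8 alone. Changes were placed only on genes with higher counts, so genes with few reads were not covered. Alternatives were RLE scaling, no filter and a stricter filter, DESeq2 1.42.0, a replicate block, a separate fit of each line and leaving out each library.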

Additional observations from a re-analysis of the deposited data

Results flagged for a closer look

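For LTA, 6 differences between 2 changes against DMSO passed edgeR's quasi-likelihood test of the difference itself. Between the lines (TMD8 minus HBL1) 3 of 9 passed: -2.01 with copanlisib at 3 h, -1.56 with acalabrutinib at 6 h and -2.36 with copanlisib at 6 h. The share of all genes called in these settings was 0.0576%, 0.151% and 0.562%. Between times (24 h minus 3 h) 3 of 6 passed: -0.75 with NGI-1 in TMD8, 1.80 with copanlisib in TMD8 and -1.30 with NGI-1 in HBL1. The share of all genes called there was 12.0%, 10.9% and 4.8%. The call with NGI-1 in TMD8 was lost without each of its 8 libraries in turn, without a filter and with DESeq2. All are on the log2 scale, with 2 libraries a group.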

How the results depend on the processing

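The number of called comparisons stayed within 1.5 times its reported value under each alternative run, and no direction of a called value turned. LTA was called against DMSO in 14 comparisons with RLE scaling, without a filter, with the stricter filter, in separate fits and with DESeq2. Differences between compounds numbered 20 as reported and 18 to 24 under these alternatives. Leaving out 1 library at a time gave 13 to 14 calls for LTA against DMSO, 18 to 21 between compounds, 3 to 3 between lines and 2 to 3 between times in a compound's change, 4 to 6 over time in DMSO, 8 to 9 between lines in DMSO, and 11 to 12 comparisons with TNF and LTB on opposite sides of DMSO. Where this left 1 library in a group, that library was assumed to vary like the other groups. Libraries were left out for TNF, LTA and LTB alone, not for the gene lists, whose 262 calls against DMSO were 258 with RLE scaling. LTA with NGI-1 at 24 h minus 3 h in TMD8 lost its call without a filter (adjusted p = 0.071) and with DESeq2 (0.071). LTB with copanlisib over acalabrutinib at 24 h in HBL1 passed with RLE scaling (0.047), the stricter filter (0.049) and no filter (0.0028). The cause was not tested.

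With the replicate number as a replicate block over all libraries, LTA was called against DMSO in 15 comparisons, and 21 differences passed between compounds, 3 between lines and 3 between times in a compound's change, 7 over time in DMSO and 8 between lines in DMSO. With a replicate block within each line and time these were 16, 27, 3, 3, 8 and 8. LTA with acalabrutinib at 3 h in HBL1, which did not pass without a block, then passed (adjusted p = 0.045 with the first block and 0.013 with the second), as did LTA with NGI-1 at 6 h in HBL1 with the second (0.033). The adjusted p of these 2 results ran from 0.013 to 0.94 over 11 alternatives and from 0.033 to 0.81 over 11 alternatives. Under both blocks TNF and LTB were on opposite sides of DMSO in 12 comparisons. Same-numbered libraries of a line and time had deviations correlated over 0.1 in 33 of 36 pairs of groups (lowest 0.0904, median 0.234, highest 0.443), and over all lines and times in 88 of 276. The pairs were not all over 0.1 and the labels name no shared batch, so pairing by number was not established, though most correlations within a line and time were positive. Depth limits LTB most, with 6 reads in its lowest library.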
